A study of Mus musculus with 6 samples.

Results

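Red cell transcripts were measured in bulk RNA-Seq libraries of mouse lateral cortex at embryonic day 12.5. Hemoglobin joins a pair of alpha-like chains with a pair of beta-like chains, and the genes for each chain lie in a cluster in which the embryonic gene comes first and the adult genes follow. The first red cells of the embryo, the primitive cells born in the yolk sac, use the embryonic chains and later add adult alpha chains, whereas the definitive red cells that leave the fetal liver use adult alpha and adult beta chains. Within the primitive lineage, the zeta chain and the beta-h1 chain give way to the alpha chains and the epsilon-y chain as the cells mature. Red cells reach the embryonic cortex through its blood vessels and are not made there.

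The 9 genes were the 7 globins Hba-x, Hba-a1, Hba-a2, Hbb-y, Hbb-bh1, Hbb-bs and Hbb-bt, together with Alas2, the heme synthesis enzyme of red cells, and Slc4a1, the anion exchanger band 3 of the red cell membrane. They were 9 of 17068 genes in the count table, named by matching Ensembl identifiers to GENCODE M21. The genes were chosen by name as red cell genes and selected on their levels in these same 6 libraries, so their levels and differences below are a description, and nothing is supported by them. All 9 were in the table, which the authors had filtered on low counts, and the lowest count of any of them in any library was 594.

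Of the 6 libraries, 4 were labelled Control and 2 Foxp1cKO. Controls 1, 2 and 4 were Foxp1 fl/+ and Control 3 was Foxp1 fl/fl, all without Cre. Foxp1cKO 1 and Foxp1cKO 2 were Foxp1 fl/fl;Emx1Cre. All 6 embryos were female, of the c57/bl6 strain and at E12.5. Emx1Cre acts in progenitors of the dorsal telencephalon and their descendants, which do not include blood cells. The litter of each embryo was not used here, so litter and library cannot be told apart, and p-values measure the spread between these libraries.

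The targeted gene was looked at first. Foxp1, a forkhead transcription factor, was at 59.7, 60.8, 71.2 and 79.1 CPM (counts relative to the TMM-scaled library total) in Controls 1 to 4 and at 83.2 and 76.8 CPM in the libraries labelled Foxp1cKO. Foxp1cKO 1 was the highest of all 6 libraries, so the gene total gives no check of the label. Such a total need not show the loss of a floxed exon, and Foxp1cKO is used below only as the label that 2 libraries carry. Dorsal cortical identity was present in all 6, with the dorsal telencephalic factor Emx1 at 68.8 to 136 CPM and the radial glia factor Pax6 at 171 to 245 CPM. The libraries held 50076008 to 78346979 counts, at which 3 counts equal 0.0383 to 0.0599 CPM. The 9 genes together took 0.110% to 0.424% of all counts.

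The globin clusters are in GRCm38 on chromosomes 11 and 7, with the embryonic genes first. The alpha-like genes run along the plus strand as Hba-x (chr11:32276400-32278116), Hba-a1 (chr11:32283511-32284465) and Hba-a2 (chr11:32296489-32297298). The beta-like genes run along the minus strand as Hbb-y (chr7:103851749-103853216), Hbb-bh1 (chr7:103841637-103843164), Hbb-bs (chr7:103826534-103828096) and Hbb-bt (chr7:103812524-103813996). Slc4a1 (chr11:102348824-102366203, minus strand) and the globins overlap no other annotated gene. Alas2 (chrX:150547375-150570638, plus strand) overlaps the genes Apex2 and Mir3620 on the opposite strand.

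The promoters are shown because the genes' levels moved apart between libraries while the coding sequences of the adult pairs are nearly the same. RefSeq promoter sequence on GRCm38.p6 was matched for 7 of the 9 genes, Hbb-bh1 and Slc4a1 being named only. The 150 bases before the RefSeq start are given 5′ to 3′ for 6 of them, with capitals marking short motifs on either strand. The motifs searched were the Klf box CACCC, the CCAAT box, the GATA core GATAA, and as TATA boxes the letters TATAA or ATAAA, each also as its reverse complement.
Hba-x (chr11:32276450-32276599, plus strand): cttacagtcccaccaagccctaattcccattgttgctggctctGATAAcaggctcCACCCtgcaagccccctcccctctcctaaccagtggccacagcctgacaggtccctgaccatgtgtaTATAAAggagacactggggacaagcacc
Hba-a2 (chr11:32296342-32296491, plus strand): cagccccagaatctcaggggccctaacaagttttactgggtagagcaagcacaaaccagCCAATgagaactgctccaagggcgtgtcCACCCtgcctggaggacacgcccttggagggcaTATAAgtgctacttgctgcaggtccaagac
Hbb-y (chr7:103853208-103853357, minus strand): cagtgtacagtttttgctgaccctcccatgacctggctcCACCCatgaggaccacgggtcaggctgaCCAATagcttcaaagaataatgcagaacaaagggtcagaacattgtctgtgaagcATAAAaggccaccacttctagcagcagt
Hbb-bs (chr7:103827929-103828078, minus strand): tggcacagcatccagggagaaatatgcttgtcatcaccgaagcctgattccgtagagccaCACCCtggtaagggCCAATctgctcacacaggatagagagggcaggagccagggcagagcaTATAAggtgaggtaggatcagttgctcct
Hbb-bt (chr7:103813924-103814073, minus strand): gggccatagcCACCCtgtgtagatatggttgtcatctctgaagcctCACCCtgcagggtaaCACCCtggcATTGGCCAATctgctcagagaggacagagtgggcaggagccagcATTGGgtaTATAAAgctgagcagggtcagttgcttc
Alas2 (chrX:150547267-150547416, plus strand): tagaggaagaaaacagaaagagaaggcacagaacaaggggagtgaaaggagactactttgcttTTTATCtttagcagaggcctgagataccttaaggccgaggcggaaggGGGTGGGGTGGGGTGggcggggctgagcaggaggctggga

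The Hba-a1 window is not printed because it holds the same sequence as that of Hba-a2, with 297 bases in 1 shared run out of windows of 300. The adult beta promoters of Hbb-bs and Hbb-bt were 72.4% identical over 150 bases, while Hbb-bs and Hbb-y were 49.7% identical. CACCC was found in 7 of 7 windows and in 37.4% of the windows of that length before all 32851 RefSeq starts in the table. CCAAT was in 5 of 7 windows, missing from those of Hba-x and Alas2, against 24.5% of all windows. GATAA was in the windows of Hba-x and Alas2 alone, against 13.4% of all windows. A TATA box in either form was in 7 of 7 windows, against 28.7% of all, and both forms overlap in TATAAA. In Alas2, the only TATA match is on the minus strand, away from the start, where it overlaps the GATA core. These matches describe letters in the windows, not occupied sites.

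The adult pairs limit how far their counts can be told apart. The coding sequences of Hba-a1 and Hba-a2 differed at 1 of 426 bases, and those of Hbb-bs and Hbb-bt at 1 of 441 bases, with 0 residue differences in either pair. Only uniquely mapped reads were used by the authors, so reads that fit both genes of a pair were left out. Of all windows of 150 bases along its transcript, Hba-a1 shared 48.4% with Hba-a2, and Hba-a2 shared 65.7% with Hba-a1. Hbb-bs shared 58.7% with Hbb-bt, and Hbb-bt shared 50.7% with Hbb-bs. The reads were paired and these windows treat each read alone, so they do not give the share of read pairs left out. The levels of these 4 genes are therefore low by an unknown amount and their split is uncertain, but the same holds in every library. Hba-x, Hbb-y, Hbb-bh1 and Slc4a1 shared 0 windows with any other gene. Alas2 shared 8.63%, all with Apex2 on the opposite strand. The kit kept strand, but whether counting used it is not given in the sources used here.

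**Figure D1:**
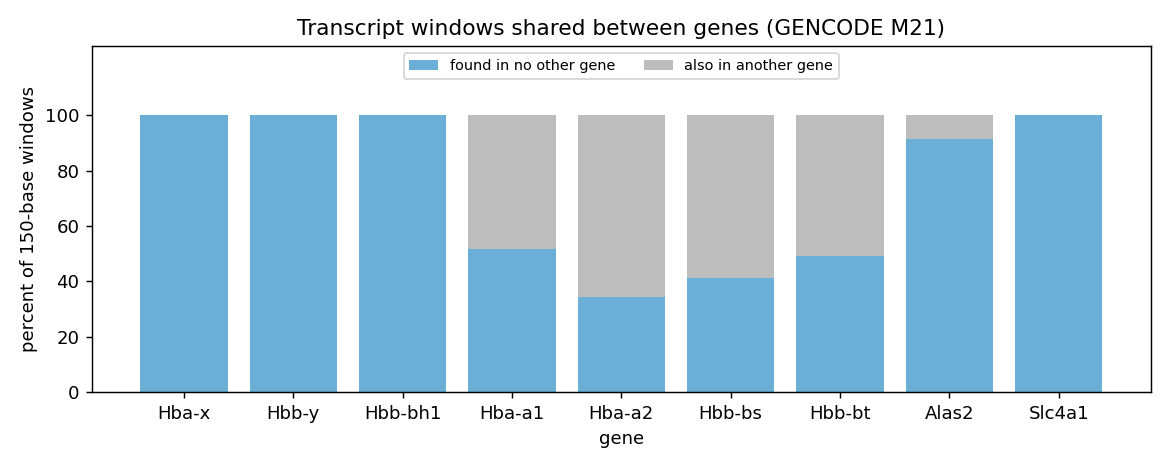
Share of all 150-base windows of each gene's transcript (percent, vertical axis) that occur in no other GENCODE M21 gene (blue) or also in another gene (grey), for the 9 genes. The embryonic globins and Slc4a1 are at 100% unshared, and the 4 adult-type globins lie between 34.3% and 51.6%.

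The libraries fell apart by embryonic globin level, but not by label. Control 4 had the high levels of both libraries labelled Foxp1cKO, and Controls 1 to 3 had lower ones. For that reason each difference below is given with all 4 controls and without Control 4. In bulk tissue, fewer red cells and less RNA per red cell cannot be told apart.

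Hba-x encodes the embryonic zeta chain. It was at 112, 80.2 and 89.8 CPM in Controls 1, 2 and 3, at 559 CPM in Control 4, and at 720.0 and 653 CPM in Foxp1cKO 1 and 2. The Foxp1cKO libraries were above every control, but Control 4 was 5.01 times the highest other control and only 0.856 times the lower Foxp1cKO library. The fitted log2 fold change was 1.71 ± 0.778 (SE) with all 4 controls and 2.87 ± 0.146 without Control 4.

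Hbb-y encodes the epsilon-y chain, the main embryonic beta-like chain at this age. It was at 935, 754 and 774 CPM in Controls 1, 2 and 3, at 2340.0 CPM in Control 4, and at 2454 and 2739 CPM in Foxp1cKO 1 and 2. It had the highest level of the 9 genes in every library, also per kilobase of exon, with 1191 to 4328 CPM per kilobase. Its log2 fold change was 1.11 ± 0.457 with all 4 controls and 1.66 ± 0.120 without Control 4.

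Hbb-bh1 encodes the beta-h1 chain, the earliest of the beta-like chains. It was at 14.8, 9.56 and 11.1 CPM in Controls 1, 2 and 3, at 115 CPM in Control 4, and at 89.0 and 122 CPM in Foxp1cKO 1 and 2. Control 4 lay between the Foxp1cKO libraries, so the labelled groups overlapped. Hbb-bh1 had the widest range of the 9 genes, with 12.8-fold between its highest and lowest library. Its log2 fold change moved from 1.49 ± 0.993 with all 4 controls to 3.16 ± 0.213 without Control 4.

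The adult-type alpha globins followed with smaller ranges. Hba-a1 was at 159, 109 and 122 CPM in Controls 1, 2 and 3, at 271 CPM in Control 4, and at 353 and 362 CPM in Foxp1cKO 1 and 2. Hba-a2 was at 39.2, 26.9 and 29.2 CPM in Controls 1, 2 and 3, at 61.1 CPM in Control 4, and at 59.4 and 64.9 CPM in Foxp1cKO 1 and 2. The Foxp1cKO libraries were above every control for Hba-a1, but Control 4 lay between them for Hba-a2. The log2 fold change of Hba-a1 was 1.11 ± 0.336 with all 4 controls and 1.46 ± 0.155 without Control 4. That of Hba-a2 was 0.67 ± 0.311 and 0.97 ± 0.162 in the same fits.

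The adult-type beta globins did not follow. Hbb-bs was at 109, 67.9 and 71.7 CPM in Controls 1, 2 and 3, at 82.6 CPM in Control 4, and at 70.5 and 76.6 CPM in Foxp1cKO 1 and 2. Control 1 had the highest level, and the Foxp1cKO libraries lay inside the range of the controls. Its log2 fold change was -0.17 ± 0.191 with all 4 controls and -0.17 ± 0.210 without Control 4. Hbb-bt was at 60.0, 37.0 and 37.6 CPM in Controls 1, 2 and 3, at 72.8 CPM in Control 4, and at 53.1 and 73.1 CPM in Foxp1cKO 1 and 2. Control 1 was above Foxp1cKO 1 here, so that no split of the libraries by level was seen. Its log2 fold change was 0.28 ± 0.301 with all 4 controls and 0.49 ± 0.245 without Control 4.

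Alas2, which starts heme synthesis in red cells, was at 21.7, 13.7 and 13.5 CPM in Controls 1, 2 and 3, at 40.5 CPM in Control 4, and at 46.7 and 49.2 CPM in Foxp1cKO 1 and 2. Slc4a1 was at 22.3, 15.1 and 17.1 CPM in Controls 1, 2 and 3, at 71.8 CPM in Control 4, and at 60.5 and 57.9 CPM in Foxp1cKO 1 and 2. For Slc4a1, Control 4 was the highest of all 6 libraries. The log2 fold change of Alas2 was 1.10 ± 0.427 with all 4 controls and 1.56 ± 0.213 without Control 4, and that of Slc4a1 was 0.90 ± 0.608 and 1.70 ± 0.160.

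**Figure D2:**
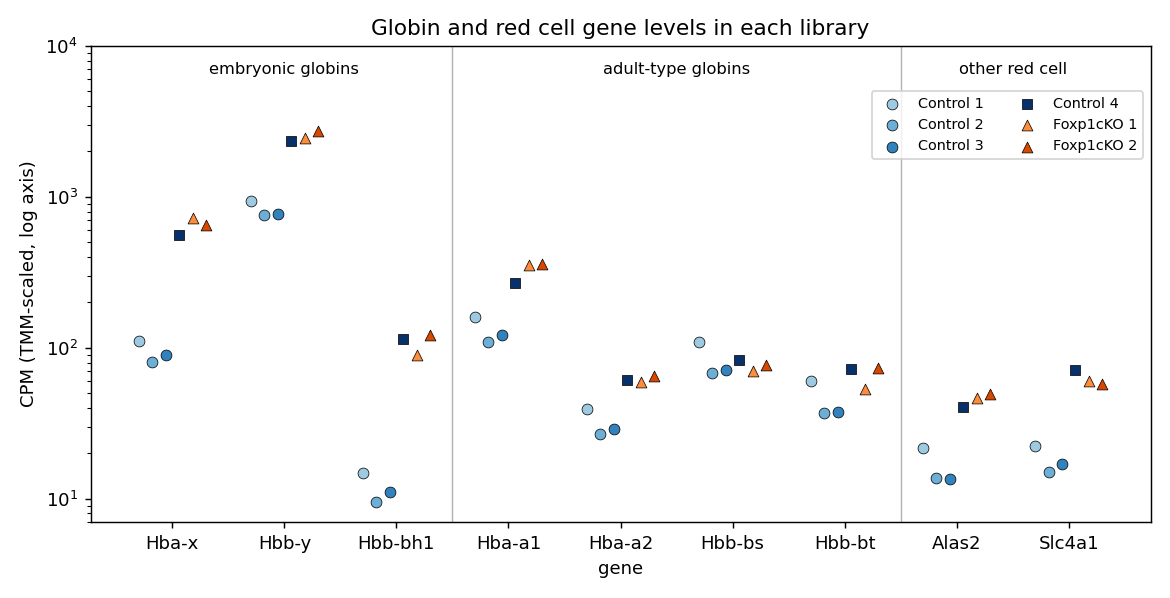
Level of each gene (TMM-scaled CPM, log axis) in each library, with 1 point per library, circles for Controls 1 to 3, a square for Control 4 and triangles for Foxp1cKO. Control 4 and Foxp1cKO lie above Controls 1 to 3 for 7 of the 9 genes, and the points mix for Hbb-bs and Hbb-bt.

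Counted over the 9 genes, Control 4 and both Foxp1cKO libraries were all above Controls 1 to 3 for 7 genes, the exceptions being Hbb-bs and Hbb-bt. Over all 17068 genes, 12.6% had that order. Both Foxp1cKO libraries were above all 4 controls for 4 genes, Hba-x, Hbb-y, Hba-a1 and Alas2, and for 11.5% of all genes. The median log2 fold change of the 9 genes was 1.10 with all 4 controls and 1.56 without Control 4, beside -0.0044 over all genes with all 4 controls.

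In the edgeR quasi-likelihood fit to all genes and libraries, with Benjamini-Hochberg adjustment, 0 of the 9 genes passed an adjusted p of 0.05, and 0.152% of all genes did. Their adjusted p ran from 0.289 for Hba-a1 to 0.736 for Hbb-bs. At an unadjusted p under 0.05, Hbb-y, Hba-a1 and Alas2 were higher, 3 of 9 beside 6.53% of all genes. DESeq2 on the same counts called Hba-a1 alone (adjusted p = 0.0311), beside 1.81% of all genes called higher. It gave Hbb-bh1 no adjusted p, so that gene had no verdict there. The limma fit to the deposited variance-stabilized values called 0 of 9.

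Without Control 4, edgeR called 6 of the 9 genes higher, beside 0.486% of all genes. These were Hba-x (adjusted p = 0.00223), Hbb-bh1 (0.00478), Hbb-y (0.00534), Slc4a1 (0.0164), Hba-a1 (0.0271) and Alas2 (0.0490) in that edgeR fit. Hba-a2 (0.0784), Hbb-bt (0.334) and Hbb-bs (0.690) were not called. Since the genes were chosen with their levels known, nothing is read from these counts.

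**Figure D3:**
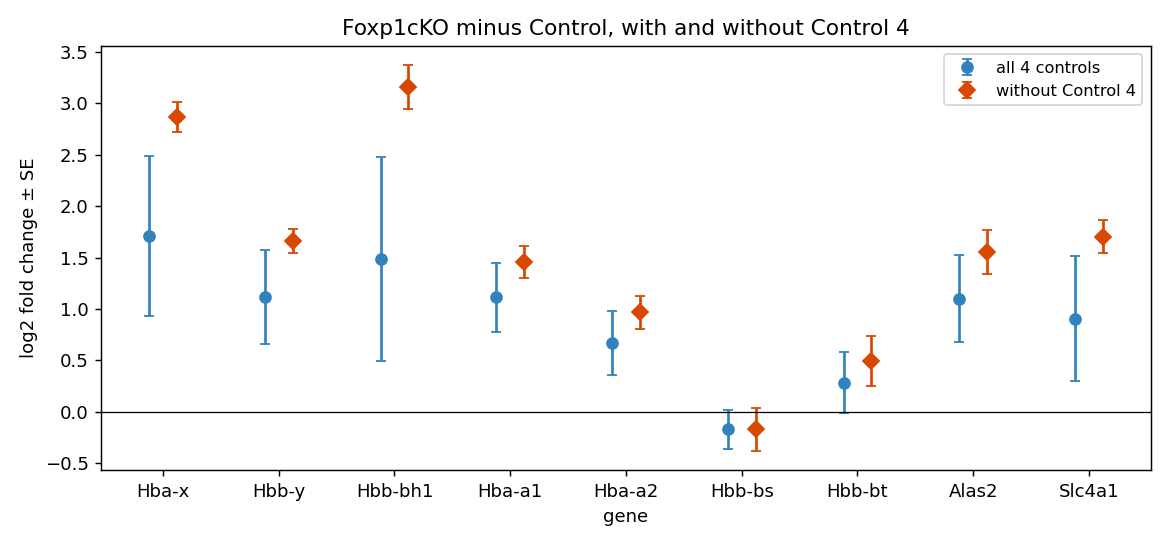
Fitted log2 fold change of each gene, Foxp1cKO minus Control (vertical axis, bars show SE), with all 4 controls (blue circles) and without Control 4 (orange diamonds). Hba-x moves from 1.71 to 2.87 and Hbb-bh1 from 1.49 to 3.16, and Hbb-bs stays at -0.17 in both fits.

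Embryonic and adult-type globins were next set against each other within each library, as shares of raw counts, so that the amount of blood in a library does not enter. Hbb-y and Hbb-bh1 made up 84.9%, 87.9% and 87.8% of the beta-like counts in Controls 1, 2 and 3, 94.1% in Control 4, and 95.4% and 95.03% in Foxp1cKO 1 and 2. The mean was 88.7% ± 3.86 (SD, n = 4) in Control and 95.2% ± 0.240 (SD, n = 2) in Foxp1cKO, a difference of 6.54 percentage points. With Hbb-bh1 alone as the embryonic gene, and Hbb-y left out of the total, the difference was 26.4 percentage points. In that share Control 4 lay between the Foxp1cKO libraries, so the labelled groups overlapped. In the share of Hbb-y and Hbb-bh1 together the labelled groups did not overlap, but Control 4 was nearer to the Foxp1cKO libraries than to any other control. The widest 95% Wilson interval, in Control 2, was 87.7% to 88.2%, and all such intervals cover counting error only.

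The alpha-like genes gave a wider split. Hba-x made up 36.04%, 37.1% and 37.3% of the alpha-like counts in Controls 1, 2 and 3, 62.7% in Control 4, and 63.6% and 60.5% in Foxp1cKO 1 and 2. The mean was 43.3% ± 13.0 (SD, n = 4) in Control and 62.0% ± 2.16 (SD, n = 2) in Foxp1cKO. Control 4 lay between the Foxp1cKO libraries, and Controls 1 to 3 lay within 36.04% to 37.3%. Because reads common to Hba-a1 and Hba-a2 were left out, the zeta share is too high in every library by an unknown amount, as is the embryonic share of beta-like counts. Per kilobase, Hba-x was below Hba-a1 in Controls 1 to 3 (119 against 196 CPM per kilobase in Control 1) and above it in Control 4 (596 against 334) and in both Foxp1cKO libraries (697 against 445 in Foxp1cKO 2).

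Within the embryonic beta-like pair, the earlier chain took a larger part in the same 3 libraries. Hbb-bh1 made up 1.56%, 1.25% and 1.42% of the counts of Hbb-bh1 and Hbb-y in Controls 1, 2 and 3, 4.67% in Control 4, and 3.50% and 4.26% in Foxp1cKO 1 and 2. Control 4 had the highest share of all, and the lowest of the high libraries was still above the highest of Controls 1 to 3. Both genes have only unshared windows, so multimapping does not enter this share.

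Within the adult-type beta pair, Hbb-bt made up 35.5%, 35.3% and 34.4% of the counts in Controls 1, 2 and 3, 46.8% in Control 4, and 43.0% and 48.8% in Foxp1cKO 1 and 2. The 3 libraries with high embryonic globins thus also had the higher Hbb-bt share. Within the adult-type alpha pair, Hba-a2 made up 19.8%, 19.8%, 19.3% and 18.4% in Controls 1 to 4, and 14.4% and 15.2% in Foxp1cKO 1 and 2. This share was one in which Control 4 stayed near the other controls. The labelled groups did not overlap, with a difference of -4.51 percentage points. For both pairs the split rests on the reads that differ between near-identical genes.

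Alpha-like globins together took 21.7%, 19.95%, 21.2% and 25.5% of all globin counts in Controls 1 to 4, and 29.8% and 26.4% in Foxp1cKO 1 and 2. The labelled groups did not overlap in this share either, and Control 4 was the highest control.

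**Figure D4:**
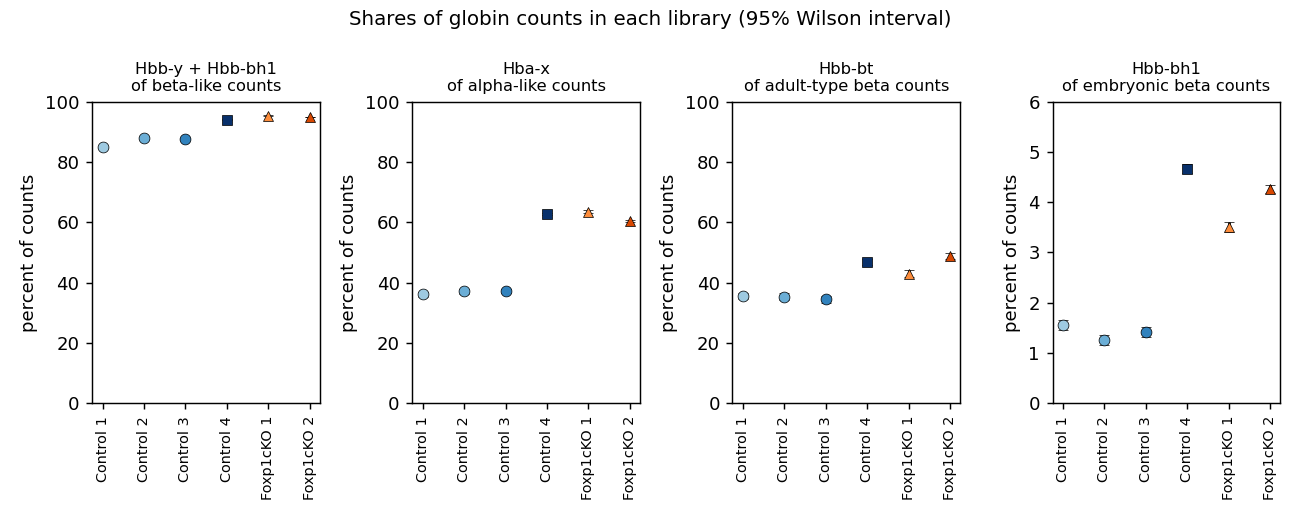
Shares of raw globin counts (percent, vertical axes) in each library, with 95% Wilson intervals that are mostly smaller than the symbols. From left to right the embryonic share of beta-like counts, the Hba-x share of alpha-like counts, the Hbb-bt share of adult-type beta counts and the Hbb-bh1 share of embryonic beta-like counts, the last with an axis from 0 to 6. In the last 3 panels Control 4 lies with the Foxp1cKO libraries.

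The summed level shows how much each class moved. The 3 embryonic globins summed to 1061, 844 and 875 CPM in Controls 1, 2 and 3, 3013 CPM in Control 4, and 3263 and 3515 CPM in Foxp1cKO 1 and 2. The 2 adult-type alpha globins summed to 198, 136 and 151 CPM in Controls 1, 2 and 3, 332 CPM in Control 4, and 413 and 427 CPM in Foxp1cKO 1 and 2. The 2 adult-type beta globins summed to 169, 105 and 109 CPM in Controls 1, 2 and 3, 155 CPM in Control 4, and 124 and 150 CPM in Foxp1cKO 1 and 2. Highest over lowest library was thus 4.17 for the embryonic globins, 3.13 for adult-type alpha and 1.61 for adult-type beta. All 7 globins together were at 1787 ± 1152 CPM (SD, n = 4) in Control and 3945 ± 206 CPM (SD, n = 2) in Foxp1cKO, with Control 4 at 3501 CPM.

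Set against Slc4a1, a gene of red cells of either lineage, Hbb-y kept nearly the same ratio. It had 42.0, 49.8, 45.3 and 32.6 counts per Slc4a1 count in Controls 1 to 4, and 40.6 and 47.3 in Foxp1cKO 1 and 2, a range of 1.53-fold. Hbb-bs had 4.90, 4.48 and 4.19 counts per Slc4a1 count in Controls 1, 2 and 3, 1.15 in Control 4, and 1.17 and 1.32 in Foxp1cKO 1 and 2. The ratio of Hbb-bs thus spanned 4.26-fold and split the libraries into the same groups of 3. Hba-x went the other way, with 5.01, 5.30 and 5.25 in Controls 1, 2 and 3, 7.79 in Control 4, and 11.9 and 11.3 in Foxp1cKO 1 and 2. Alas2 per Slc4a1 ran from 0.564 in Control 4 to 0.973 in Control 1, a range of 1.73-fold.

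**Figure D5:**
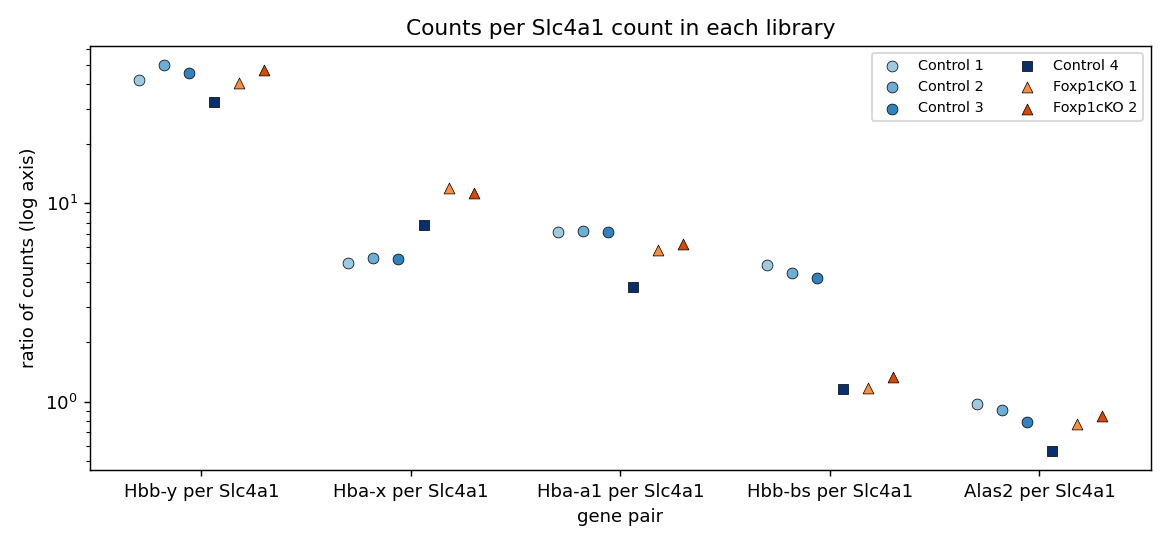
Counts of 5 genes per Slc4a1 count in each library (log axis), with symbols as in the plot of gene levels. The Hbb-y ratio stays between 32.6 and 49.8, and the Hbb-bs ratio is 4.19 to 4.90 in Controls 1 to 3 and 1.15 to 1.32 in the other libraries.

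Other genes of the red cell program were counted in lists. Of 88 listed genes 79 were analysed, and 0 of them passed the edgeR threshold with all 4 controls. Hbq1b, a theta globin of the alpha cluster, was the only further globin of the clusters analysed. It was near the floor, with 7, 7 and 9 counts in Controls 1, 2 and 3, 62 in Control 4, and 31 and 48 in Foxp1cKO 1 and 2, the order of the embryonic globins.

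Of the red cell membrane and cytoskeleton genes, 17 of 18 were analysed, 14 with a positive and 3 with a negative log2 fold change and a median of 0.71. Control 4 and both Foxp1cKO libraries were above Controls 1 to 3 for 10 of these 17, beside 12.6% of all genes. Sptb, the beta spectrin of red cells, was at 6.02, 6.81 and 6.54 CPM in Controls 1, 2 and 3, 19.4 CPM in Control 4, and 21.4 and 20.5 CPM in Foxp1cKO 1 and 2. The genes of highest level on this list, which cells other than red cells also use, did not have that order, with Epb41 at 343 to 401 CPM, Add2 at 210 to 382 CPM and Tfrc, the transferrin receptor, at 114 to 175 CPM. Without Control 4, edgeR called 5 of the 17 higher, Sptb, Rhag, Rhd, Ermap and Tmod1, beside 0.486% of all genes. All of these but Sptb are named because they were called.

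Of 20 cytosolic and maturation genes, 18 were analysed, with a median log2 fold change of 0.32. Bnip3l, a mitophagy receptor that clears mitochondria from maturing red cells and is used in many other cells, was at 135 to 147 CPM in the 4 controls and at 196 and 212 CPM in Foxp1cKO 1 and 2. Its adjusted p was 0.0747 in the edgeR fit with all libraries and 0.0490 without Control 4. For Bnip3l, Control 4 was with the other controls. Car2, a carbonic anhydrase, and Pklr, the red cell and liver pyruvate kinase, named because they too were called higher without Control 4, had Control 4 with the Foxp1cKO libraries. Car2 was at 6.35 to 9.64 CPM in Controls 1 to 3, 26.1 CPM in Control 4, and 24.3 and 21.8 CPM in Foxp1cKO 1 and 2. Pklr was near the floor, with 6, 6 and 3 counts in Controls 1, 2 and 3, 32 in Control 4, and 31 and 71 in Foxp1cKO 1 and 2. Prdx2, the peroxiredoxin of red cells that neurons also hold, was at 591 to 637 CPM in the controls and at 435 and 530 CPM in Foxp1cKO 1 and 2.

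Of 11 erythroid transcription factors 10 were analysed, with 0 called in either fit and a median log2 fold change of 0.47. Gata1, the GATA factor that drives the red cell program, was at 0.145 to 0.241 CPM in Controls 1 to 3, 1.13 CPM in Control 4, and 0.795 and 0.699 CPM in Foxp1cKO 1 and 2. Klf1, which binds CACCC boxes of globin promoters, was at 0.329 to 0.630 CPM in Controls 1 to 3, 1.58 CPM in Control 4, and 1.23 and 1.38 CPM in Foxp1cKO 1 and 2. Both were thus low in every library and in the order of the embryonic globins. Foxo3, which has the lowest p of the list and is used by many cells, was at 37.3 to 46.8 CPM in the controls and at 56.0 and 62.7 CPM in Foxp1cKO 1 and 2. Epor, the erythropoietin receptor, was at 0.531 to 0.888 CPM in Controls 1 to 3 and 1.18 to 1.29 CPM in the other 3 libraries.

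Heme synthesis outside Alas2 gave a mixed picture. All 13 listed genes were analysed, 5 with a positive and 8 with a negative log2 fold change, a median of -0.09 and 0 called. Control 4 and both Foxp1cKO libraries were above Controls 1 to 3 for 4 of the 13, Slc25a37 among them, beside 12.6% of all genes. Alas1, the first enzyme of heme synthesis outside red cells, was at 31.6 to 42.9 CPM in the controls and 28.3 and 27.9 CPM in Foxp1cKO 1 and 2. Slc25a37, the mitochondrial iron importer that red cells use heavily, was at 23.4 to 35.7 CPM in Controls 1 to 3, 56.9 CPM in Control 4, and 45.8 and 45.3 CPM in Foxp1cKO 1 and 2.

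The 12 regulators known from globin switching were all analysed, with 0 called and a median log2 fold change of 0.08. Most are used by neural cells as well, so their bulk levels do not speak for red cells. Bcl11a, the repressor of embryonic globins in adult red cells, was at 292 to 354 CPM in the controls and at 366 and 342 CPM in Foxp1cKO 1 and 2. Lin28b, an RNA-binding protein of fetal red cell progenitors, was at 13.3 to 23.3 CPM in the controls and at 34.7 and 30.3 CPM in Foxp1cKO 1 and 2, with an adjusted p of 0.269 in the edgeR fit to all libraries. Of 6 genes beside the alpha-globin cluster 5 were analysed, 0 were called, and the median was -0.19. Nprl3, whose introns hold the enhancers of the alpha globins, was at 40.3 to 43.8 CPM in the controls and at 37.2 and 36.8 CPM in Foxp1cKO 1 and 2. Polr3k, a subunit of RNA polymerase III beside the cluster, was at 85.3 to 93.0 CPM in the controls and at 67.0 and 76.2 CPM in Foxp1cKO 1 and 2. Of 4 globin-fold genes outside the clusters 3 were analysed, with 0 called. Neuroglobin, Ngb, was at 0.211 to 0.378 CPM, and cytoglobin, Cygb, was at 5.60 to 9.58 CPM, with Control 4 and Foxp1cKO 1 lowest.

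Markers of other cells were read beside the globins, since blood comes with vessels and surrounding tissue, and 1 of 64 analysed marker genes was called. Endothelial markers summed to 156 to 239 CPM in the controls, 192 CPM in Control 4, and 214 and 265 CPM in Foxp1cKO 1 and 2. The called gene was Flt1, a VEGF receptor of endothelium, at 12.5 to 18.1 CPM in the controls and 44.6 and 54.2 CPM in Foxp1cKO 1 and 2 (adjusted p = 0.0179 in edgeR with all libraries). For Flt1, Control 4 was at 17.5 CPM, with the other controls. Pecam1, an endothelial adhesion molecule, was at 21.4 to 30.4 CPM in the controls, with Control 4 at 28.4 CPM, and at 35.7 and 45.7 CPM in Foxp1cKO 1 and 2 (adjusted p = 0.251 in edgeR). Cdh5, the cadherin of endothelium, was at 21.03 to 38.8 CPM in the controls, with Control 4 at 33.9 CPM, and at 25.9 and 33.1 CPM in Foxp1cKO 1 and 2. The endothelial sum did not split the libraries in the order of the embryonic globins.

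Meningeal and mesenchymal markers summed to 605, 212, 119 and 424 CPM in Controls 1 to 4, and 195 and 385 CPM in Foxp1cKO 1 and 2. Control 1, with low embryonic globins, had the highest sum, and Foxp1cKO 1, with high embryonic globins, was below Control 2. Macrophage markers summed to 27.3 to 56.9 CPM in the controls and 55.0 and 49.6 CPM in Foxp1cKO 1 and 2, and 5 of their 10 genes had the order of the embryonic globins, beside 12.6% of all genes. Their pan-leukocyte marker Ptprc was at 1.02 to 1.28 CPM in Controls 1 to 3, 1.60 CPM in Control 4, and 2.48 and 1.69 CPM in Foxp1cKO 1 and 2. The part of macrophages in the globin differences was not tested.

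Platelet and megakaryocyte markers summed to 10.4, 10.2 and 10.3 CPM in Controls 1, 2 and 3, 8.88 CPM in Control 4, and 8.47 and 8.33 CPM in Foxp1cKO 1 and 2, with Pf4 at 0.535 to 1.73 CPM in all. Gp1bb, a platelet receptor subunit, was at 3.97, 5.54, 5.90 and 2.51 CPM in Controls 1 to 4. It was at 4.13 and 3.96 CPM in Foxp1cKO 1 and 2, near its level in Control 1. The low sum of Control 4 rests on Gp1bb and was not shared by all markers. Pf4 was at 1.70 CPM in Control 4, near the top of its range, while Ppbp was lowest of the controls there, at 0.356 CPM. Itga2b, the platelet integrin, was highest in Control 4 at 3.10 CPM, so not every marker had the order of the sum. All 8 markers had a negative log2 fold change with all 4 controls, with a median of -0.44 and 0 called. Of 6 fetal liver genes, the apolipoproteins Apoa1 and Apoa2 were analysed, and both were at 0.419 CPM or less in all libraries.

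The neural makeup moved with the same libraries in part. Cortical neuron markers summed to 3906, 4717 and 5048 CPM in Controls 1, 2 and 3, 2798 CPM in Control 4, and 3628 and 3797 CPM in Foxp1cKO 1 and 2, so that the 3 libraries with high embryonic globins had the lowest sums. Radial glia markers summed to 2087 to 2511 CPM and did not split that way. Pericyte and mural markers summed to 195 to 231 CPM in the controls and 290 and 286 CPM in Foxp1cKO 1 and 2, with Control 4 at 231 CPM. The part of the neural makeup in the globin differences was not tested.

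The genes most like the 7 globins across the 6 libraries were found by Pearson correlation of log2 CPM with the mean log2 CPM of the globins, among 13846 genes with a mean of at least 1 CPM. The 10 highest, each with r of at least 0.9919 over 6 libraries, were Ccdc191, Arhgap10, Mettl3, Pdzk1ip1, Gcnt1, Tbc1d32, Gjc1, Mettl8, 9530077C05Rik and Tram2. None of the 10 was on a list above. Ccdc191 was at 19.4, 16.95 and 16.7 CPM in Controls 1, 2 and 3, 24.8 CPM in Control 4, and 24.6 and 25.9 CPM in Foxp1cKO 1 and 2. The 6 points fall into separate clusters, and this likeness is a description only.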

How the data were processed

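RNA of lateral cortex was sequenced by the authors as strand-keeping, paired reads, mapped to mm10 with STAR, and uniquely mapped reads were counted per gene with HTSeq 0.9.1. The deposited counts are whole, unnormalized numbers for 17068 genes that passed the authors' filter of 10 counts. The deposited log2-scale values are variance-stabilized by the authors and were used in 1 alternative. Of the identifiers, 17047 were found in GENCODE M21 and 21 were not.

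Counts were TMM scaled and fitted with edgeR 4.0.16 (glmQLFit, glmQLFTest) in R 4.3.3, with the group alone, over all genes, with Benjamini-Hochberg adjustment. The SE is the log2 fold change divided by the root of the F statistic. The authors' own model also held the litter. DESeq2 1.42.0, limma 3.58.1, other scalings, filters and left-out libraries were alternatives, and the fit was tested on simulated data. CPM per kilobase used the exonic length of each gene. Shares were taken from raw counts with 95% Wilson intervals and given no test. Coding sequences were aligned with Biopython 1.88. Totals were 50076008 to 78346979 counts. No libraries of a group were duplicates, since counts of every pair in a group differed by more than sampling noise, with a chi-square per gene of 25.9 or more. The 9 genes and all lists were chosen with earlier results of these data known. All 9 genes were named. Named list genes came from those that passed the threshold, were among the 3 highest in CPM of their list, had its lowest p, or define a cell type. Values of some listed genes are not reported here.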

Additional observations from a re-analysis of the deposited data

Results flagged for a closer look

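In the 4 controls, 34 results were looked at for a library far from the rest, by the gap to the nearest other library over the whole range, and 10 passed Dixon's critical value at the 95% level. Chance gives about 1 in 20, and these results share libraries and genes. For gene levels the value was 0.934 for Hba-x, 0.886 for Hbb-y, 0.9502 for Hbb-bh1 and 0.874 for Slc4a1, each with Control 4 as the high library. For shares it was 0.955 for Hba-x among alpha-like counts, 0.910 for Hbb-bh1 among embryonic beta-like counts and 0.914 for Hbb-bt among adult-type beta counts, again with Control 4 high. For summed levels it was 0.858 for the 7 globins and 0.984 for the other globin of the clusters, Hbq1b, with Control 4 high. For the platelet and megakaryocyte markers it was 0.869, with Control 4 low. That low sum rests on Gp1bb, while Itga2b was highest in Control 4. Without Control 4, the zeta share differed by 25.2 percentage points between the labelled groups, beside 18.8 with it. The cause was not tested.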

How the results depend on the processing

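Each gene was refitted under 13 alternatives. Of 117 such values, 7 passed the threshold newly and 0 changed sign. The others stayed on the same side, except Hbb-bh1 under DESeq2, which had no adjusted p. The 7 were 6 genes without Control 4 and Hba-a1 under DESeq2. Genes past the threshold over the whole table numbered 26 with all libraries and 503 under DESeq2, and between 2 (without Control 2) and 96 (without Control 4) when a library was left out, with 6 without Control 1, 9 without Foxp1cKO 1 and 3 without Foxp1cKO 2. The fits without a Foxp1cKO library assume that the lone library varies like the controls. With the replicate block the count was 0 in edgeR, with 3027 genes at an unadjusted p under 0.05. The numbers were not taken as pairs, since the deviations of same-numbered libraries correlated at -0.198 and 0.0157. The embryonic beta-like difference was 6.54 percentage points, 5.69 per exonic length, and 5.28 to 8.34 with a library left out. It was 26.4 with Hbb-bh1 alone as the embryonic gene and Hbb-y left out of the total. The zeta difference was 16.35 to 25.2 points with a library left out. The log2 difference of summed globins was 1.32, and 1.14 to 1.71 with a library left out. The cause of these shifts was not tested. Depth was not limiting for the 9 genes, all at 594 counts or more, but limits genes of few counts, such as Hbq1b, Pklr and Gata1.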
